A study of Mus musculus with 12 samples.

Results

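The genes described here are 10 transcripts that mark alveolar macrophages and other phagocytes, read in RNA from sorted mouse AT2 cells: *Ear1*, *Ear2*, *Ear10*, *Marco*, *Mrc1*, *Lpl*, *Cd68*, *Csf1r*, *Itgax* and *Tyrobp*. They were matched by symbol, and all 10 were found among the 21878 genes of the deposited table. *Ear10* was chosen by its own values, since it was higher in *Atg5*-deficient than in control samples, and the other 9 were listed to see whether macrophage genes follow it. For *Ear10*, values are therefore given as a description without a test in any comparison, and tests are given for the other 9.

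AT2 cells make and store the surfactant of the alveolus. They were sorted as EpCAM+ cells negative for CD31, CD34, CD45, CD24 and Sca-1, a gate that removes leukocytes through CD45, from mice whose strain is labelled C57BL/6 and which, for the injury experiments, were males aged 8 to 12 weeks. The design had 4 groups of 3 samples. AT2-PBS and AT2-BLM came from *Atg5f/f* mice, labelled wild type, that received PBS or bleomycin (BLM, an agent used to injure the lung, 2 U/kg into the trachea) and were studied at day 14. *Atg5*-/- AT2-PBS and *Atg5*-/- AT2-BLM came from *Nkx2.1Cre;Atg5f/f* mice given the same agents, and day 14 is named for *Atg5*-/- AT2-BLM and no day for *Atg5*-/- AT2-PBS. All groups thus carried the floxed *Atg5* allele, and the Cre was driven by *Nkx2.1*, a gene of the lung epithelium and not of macrophages, so that the deletion was aimed at epithelial cells. *Atg5* itself, as FPKM of the whole gene, was between 6.01 and 12.5 in AT2-PBS and between 6.72 and 10.1 in *Atg5*-/- AT2-PBS, ranges that overlap, and it was lower in every *Atg5*-/- AT2-BLM sample (8.37 to 8.84) than in any AT2-BLM sample (9.97 to 11.1). In that comparison of the BLM groups, 8.49% of all tested genes had lower ranges that did not overlap. The 3 samples of a group are labelled as biological replicates.

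Alveolar macrophages live on the surface of the alveolus, where they clear surfactant and inhaled particles, and they depend on GM-CSF released by AT2 cells. They are known for high levels of the eosinophil-associated ribonucleases (the Ear family), small secreted RNases that were first named in eosinophils, and for scavenger and lectin receptors such as MARCO and CD206. AT2 cells can also make *Lpl*.

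The values are FPKM, fragments scaled by transcript length and by mapped fragments, so levels of different genes can be set side by side. The number of fragments per library is unknown. FPKM summed to between 390131 and 549155 per sample. *Sftpc*, the defining AT2 transcript, was listed at 0 in every sample but AT2-BLM replicate 2, where it was at 112570 FPKM, so a listed 0 can be a failed estimate in this table. The other defining epithelial markers were present, with *Epcam* between 102 and 179 FPKM and *Cdh1* between 82.1 and 168 FPKM in the 12 samples. Changes are differences of log2(FPKM + 1) with their standard error, a scale that understates changes of genes with low FPKM. They were fitted with limma over 10675 genes with at least 1 FPKM in at least 3 samples, and genes are called here where the unadjusted p was under 0.05 together with a fold change of 1.4 or more.

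All 10 genes passed this filter on low values. Without the 3 *Atg5*-/- AT2-PBS samples 8 of the 10 would have passed, the exceptions being *Mrc1*, at 1 FPKM or more in 1 other sample, and *Itgax*, at that level in 2 other samples. *Mrc1* and *Itgax* thus entered the tests through the group in which they were high, which sets their direction in every comparison that uses that group. Counts and medians of those comparisons are given over the other 7 tested genes, and for the marker lists over genes that would have passed without that group.

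In mm9 the 3 *Ear* genes lie together on chromosome 14. *Ear1* runs from 44396430 to 44397304 on the minus strand, *Ear10* from 44500385 to 44501224 on the minus strand, and *Ear2* from 44680319 to 44681199 on the plus strand, each with 2 exons. The other 7 genes are spread over the genome. *Marco* is on chromosome 1 (122371115 to 122401661), *Mrc1* on chromosome 2 (14151041 to 14253684) and *Tyrobp* on chromosome 7 (31198807 to 31202596). *Itgax* is on chromosome 7 (135273061 to 135294171), *Lpl* on chromosome 8 (71404390 to 71431347), *Cd68* on chromosome 11 (69477715 to 69479655) and *Csf1r* on chromosome 18 (61265226 to 61291803). Values are per whole gene, so exons and introns were not separated.

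The *Ear* copies are near identical, which bears on how their reads can be assigned. Between their coding sequences in the mm9 annotation, *Ear2* and *Ear10* agree at 97.03% of aligned positions, *Ear1* and *Ear2* at 95.1% and *Ear1* and *Ear10* at 94.5%. The longest protein-coding transcripts of *Ear1*, *Ear2*, *Ear5*, *Ear6*, *Ear10*, *Ear11* and *Ear14* were compared, and other *Ear* genes were left out. Of the 50-base windows of the *Ear10* transcript, 67.2% occur in none of the other transcripts compared, against 62.4% for *Ear2* and 71.4% for *Ear1*. A read from the shared windows cannot be placed from its sequence, so the level of each of these 3 genes is uncertain to that extent.

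The 250 bases before each start site are shown because the likeness of the 3 genes reaches into their promoters. The sequences are RefSeq sequences of GRCm38.p6 on the strand of the gene, from chr14:44102404-44102653 (plus strand) for *Ear2*, chr14:43819640-43819889 (minus strand) for *Ear1* and chr14:43923597-43923846 (minus strand) for *Ear10*. Capitals mark bases of *Ear1* and *Ear10* that differ from, or are inserted against, the aligned *Ear2* sequence.
Ear2: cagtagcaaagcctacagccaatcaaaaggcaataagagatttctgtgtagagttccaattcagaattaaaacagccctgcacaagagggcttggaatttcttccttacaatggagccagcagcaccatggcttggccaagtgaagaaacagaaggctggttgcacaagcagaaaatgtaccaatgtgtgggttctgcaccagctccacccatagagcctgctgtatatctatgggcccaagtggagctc
Ear1: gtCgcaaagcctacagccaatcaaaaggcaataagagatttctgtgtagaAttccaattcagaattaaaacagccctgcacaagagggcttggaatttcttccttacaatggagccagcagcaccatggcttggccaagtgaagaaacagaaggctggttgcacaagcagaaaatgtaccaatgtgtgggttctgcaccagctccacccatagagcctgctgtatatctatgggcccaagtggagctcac
Ear10: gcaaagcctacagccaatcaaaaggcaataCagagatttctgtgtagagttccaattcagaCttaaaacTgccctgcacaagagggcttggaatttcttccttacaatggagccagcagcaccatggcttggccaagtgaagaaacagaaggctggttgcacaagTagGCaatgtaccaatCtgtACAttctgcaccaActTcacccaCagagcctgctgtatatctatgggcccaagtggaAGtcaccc
*Ear1* was identical to *Ear2* at 99.2% of aligned positions, with 2 substitutions, and *Ear10* at 93.9%, with 14 substitutions and 1 inserted base. Promoters were found for 7 of the 10 genes (*Ear1*, *Ear2*, *Ear10*, *Marco*, *Mrc1*, *Cd68* and *Itgax*). On either strand, the letters TTGCNNAA, a pattern bound by C/EBP factors, occur in all 3 *Ear* windows, between 94 and 83 bases before the start, and in that of *Cd68*, against 9.56% of 32851 RefSeq promoter windows of the same length. The 3 *Ear* windows are near copies of one another and are not separate observations. GAGGAA, the core bound by PU.1, is in the windows of *Marco*, *Mrc1* and *Cd68* (23.3% of all windows), and TGANTCA, the AP-1 pattern, in those of *Cd68* and *Itgax* (6.75% of all windows). The 3 patterns do not overlap one another in these windows, and a match of letters is no measured binding.

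**Figure D1:**
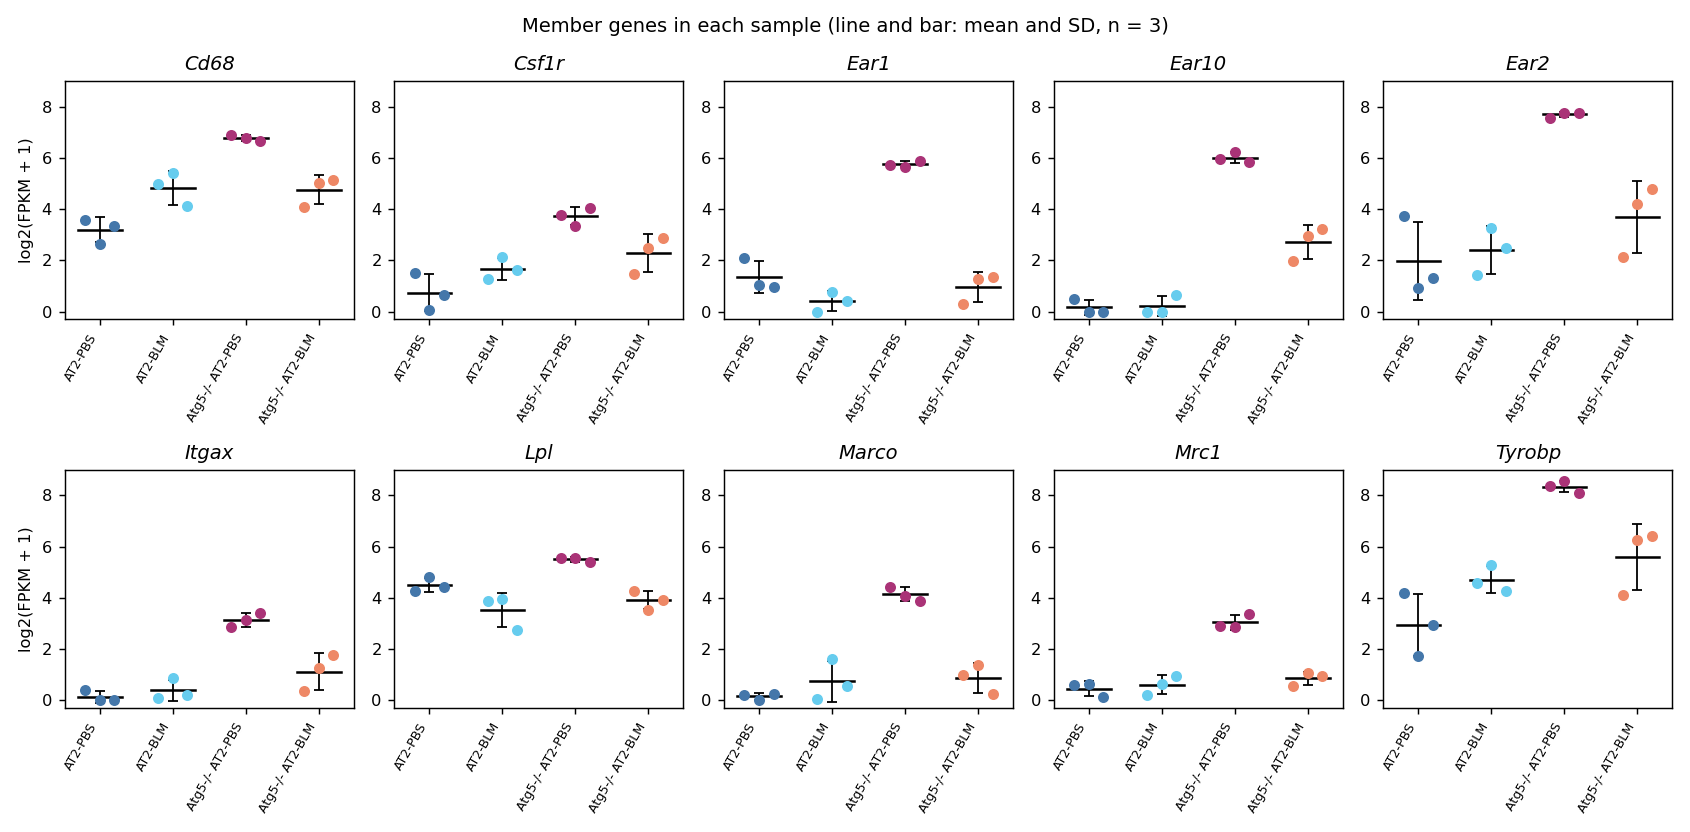
Level of each of the 10 genes in every sample, as log2(FPKM + 1) on the vertical axis, for the 4 groups on the horizontal axis; points are samples in the order of their replicate numbers, and the line and bar are the mean and SD of 3 samples. In every panel the 3 *Atg5*-/- AT2-PBS samples lie above all other samples.

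All 10 transcripts were highest in *Atg5*-/- AT2-PBS, and for each of them every sample of that group was above all 9 samples of the other groups. *Ear10* was selected on its values, and *Mrc1* and *Itgax* passed the filter only through that group. The share of all tested genes with this pattern was not computed. Against AT2-PBS alone, 18.1% of all tested genes had higher ranges that did not overlap. *Tyrobp* and *Ear2* were the most abundant in *Atg5*-/- AT2-PBS, with *Ear2* at 207 ± 14.8 FPKM (SD, n = 3). During BLM the levels in *Atg5*-/- AT2 were low again, and *Ear10* alone among the 10 kept *Atg5*-/- AT2-BLM and AT2-BLM apart.

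*Ear10* encodes one of the secreted Ear RNases. It was at 0.405 FPKM in AT2-PBS replicate 1 and listed at 0 in replicates 2 and 3, and it was listed at 0 in AT2-BLM replicates 1 and 2 and at 0.579 FPKM in replicate 3. In *Atg5*-/- AT2-PBS it reached 60.4, 74.6 and 56.6 FPKM. In *Atg5*-/- AT2-BLM it was at 2.92, 6.65 and 8.30 FPKM. Both *Atg5*-/- groups lay above both control groups in every sample, and the 2 control groups overlapped. These are the values *Ear10* was selected on. The fitted differences were 5.85 (SE 0.31) with PBS and 2.49 (SE 0.31) during BLM. With control values this close to 0 the size depends on the pseudocount, and at 0.1 in place of 1 the differences were 8.53 and 4.87.

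*Ear2*, the most abundant of the family here, was at 12.2, 0.882 and 1.46 FPKM in AT2-PBS, compared with 189.8, 214 and 217 FPKM in *Atg5*-/- AT2-PBS. In AT2-BLM it was at 1.70, 8.71 and 4.64 FPKM, and in *Atg5*-/- AT2-BLM at 3.33, 17.5 and 26.3 FPKM. Replicate 1 of *Atg5*-/- AT2-BLM sat inside the AT2-BLM range, and replicates 2 and 3 sat above it. AT2-PBS replicate 1 stood out among its group for this gene.

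*Ear1*, the third of the cluster, was at 3.24, 1.04 and 0.935 FPKM in AT2-PBS, compared with 51.8, 49.4 and 57.7 FPKM in *Atg5*-/- AT2-PBS. Under BLM it was listed at 0 and at 0.708 and 0.345 FPKM in AT2-BLM, compared with 0.219, 1.42 and 1.53 FPKM in *Atg5*-/- AT2-BLM. Every AT2-BLM sample was below every AT2-PBS sample, so that *Ear1* was at its lowest in AT2-BLM. Between these 2 groups, 11.3% of all tested genes had lower ranges that did not overlap.

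*Marco* encodes a scavenger receptor for particles and bacteria and *Mrc1* the mannose receptor CD206, both of which face the alveolar surface. *Marco* was at 20.5, 16.0 and 13.9 FPKM in *Atg5*-/- AT2-PBS, against 0.166, 0 and 0.168 FPKM in AT2-PBS. With BLM it was at 0.0362, 2.04 and 0.479 FPKM in AT2-BLM, compared with 1.00, 1.61 and 0.188 FPKM in *Atg5*-/- AT2-BLM, ranges that overlapped in full. *Mrc1* was at 6.36, 6.34 and 9.25 FPKM in *Atg5*-/- AT2-PBS, but between 0.0805 and 1.07 FPKM in the 9 other samples, which did not separate by group.

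*Itgax* encodes the integrin CD11c and *Csf1r* the receptor for CSF1 and IL-34, on which most macrophages depend. *Itgax* was at 6.32, 7.73 and 9.50 FPKM in *Atg5*-/- AT2-PBS, at 0.327, 0 and 0 FPKM in AT2-PBS, at 0.0683, 0.815 and 0.158 FPKM in AT2-BLM, compared with 0.269, 1.38 and 2.40 FPKM in *Atg5*-/- AT2-BLM. *Csf1r* was at 12.7, 9.17 and 15.4 FPKM in *Atg5*-/- AT2-PBS, against 1.82, 0.0493 and 0.544 FPKM in AT2-PBS. It was at 1.44, 3.38 and 2.05 FPKM in AT2-BLM, compared with 1.75, 4.58 and 6.41 FPKM in *Atg5*-/- AT2-BLM. For both genes replicates 2 and 3 of *Atg5*-/- AT2-BLM were above all AT2-BLM samples and replicate 1 was not.

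*Tyrobp* encodes DAP12, the adaptor that carries the signal of TREM receptors, and *Cd68* a lysosomal glycoprotein of phagocytes. *Tyrobp* was at 17.0, 2.34 and 6.60 FPKM in AT2-PBS, compared with 329, 376 and 273 FPKM in *Atg5*-/- AT2-PBS. It was at 22.6, 38.0 and 18.1 FPKM in AT2-BLM, compared with 16.4, 75.3 and 83.9 FPKM in *Atg5*-/- AT2-BLM. *Atg5*-/- AT2-BLM replicate 1 was thus the lowest of the 6 BLM samples for *Tyrobp*, while it held more *Ear10* than any AT2-BLM sample. *Cd68* was at 11.0, 5.26 and 9.12 FPKM in AT2-PBS (8.47 ± 2.94, SD, n = 3) and at 30.8, 41.4 and 16.2 FPKM in AT2-BLM (29.5 ± 12.6, SD, n = 3). In *Atg5*-/- AT2-PBS it was at 119, 109 and 101 FPKM (109.7 ± 8.77, SD, n = 3), and in *Atg5*-/- AT2-BLM at 16.2, 31.7 and 34.3 FPKM (27.4 ± 9.81, SD, n = 3), so that the BLM groups overlapped almost in full.

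*Lpl* encodes lipoprotein lipase, which releases fatty acids from triglycerides. It was at 18.0, 27.0 and 20.7 FPKM in AT2-PBS (21.9 ± 4.64, SD, n = 3) and at 46.3, 46.0 and 40.7 FPKM in *Atg5*-/- AT2-PBS (44.3 ± 3.11, SD, n = 3). With BLM it was at 13.6, 14.5 and 5.70 FPKM in control AT2 (11.3 ± 4.83, SD, n = 3) and at 18.0, 10.6 and 14.2 FPKM after *Atg5* loss (14.3 ± 3.71, SD, n = 3). It was the only member whose second-highest group was AT2-PBS, and it was at 5.70 FPKM or more in every sample. AT2-PBS held 46.7% (median of 3 samples) of the mean *Lpl* level of *Atg5*-/- AT2-PBS, while for the other 8 tested genes that share was between 0 and 8.32%.

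The order of the groups was read from their medians, with neighbours separated only where their samples did not overlap. *Atg5*-/- AT2-PBS came first for all 10 genes and was apart from the next group each time. As above, *Ear10* was selected on its values, the entry of *Mrc1* and *Itgax* rested on this group, and no share of all genes was computed. *Atg5*-/- AT2-BLM came second for 9 genes and overlapped with the group after it for all of these but *Ear10*. The ranges of AT2-BLM and AT2-PBS were apart for *Ear1*, *Cd68* and *Tyrobp* where these groups were neighbours in the order. *Cd68* and *Tyrobp* were higher in AT2-BLM, as 28.9% of all tested genes were without overlap. *Ear1* was lower there, as 11.3% of all tested genes were without overlap.

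The comparison of *Atg5*-/- AT2-PBS with AT2-PBS asks what loss of *Atg5* does in uninjured lungs. The 7 tested genes whose entry did not rest on *Atg5*-/- AT2-PBS all rose: 7 of 7 were called, 7 of 7 passed an adjusted p under 0.05 over all genes, and 7 of 7 had ranges that did not overlap. Over all tested genes 14.1% were called higher, 9.92% were higher at an adjusted p under 0.05 and 18.1% had higher ranges that did not overlap. The largest differences were those of *Ear2* (5.72, SE 0.76, adjusted p = 0.000333 by limma), *Tyrobp* (5.40, SE 0.63, adjusted p = 0.000133 by limma) and *Ear1* (4.40, SE 0.35, adjusted p = 1.71e-05 by limma). *Marco* rose by 3.99 (SE 0.37), *Cd68* by 3.60 (SE 0.35) and *Csf1r* by 2.99 (SE 0.41). *Lpl* rose least, by 1.00 (SE 0.29, adjusted p = 0.0475 by limma). The median of the 7 differences was 3.99, and that of all tested genes was 0.02. *Itgax* differed by 2.99 (SE 0.33) and *Mrc1* by 2.58 (SE 0.24), and *Ear10* by 5.85, all given as descriptions. In bulk samples, fewer or more cells of a type and less or more RNA per cell cannot be told apart, and this holds for every comparison here.

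**Figure D2:**
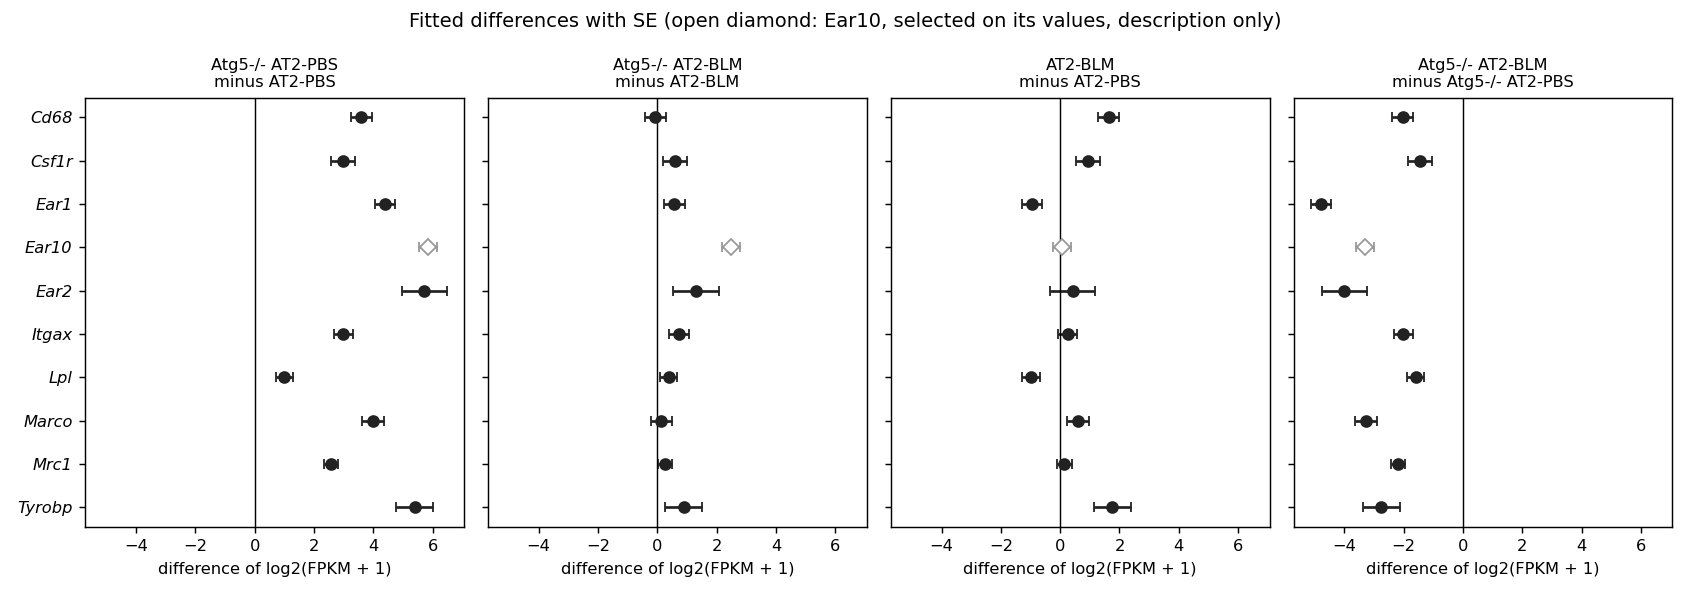
Fitted difference of log2(FPKM + 1) on the horizontal axis for each of the 10 genes, in 4 comparisons, with bars for the SE; the open diamond is *Ear10*, shown as a description. With PBS all genes lie right of 0, during BLM the 9 filled points lie between -0.08 and 1.30 and *Ear10* at 2.49, and within *Atg5*-/- AT2 all lie left of 0.

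Many transcripts of other cells moved with these genes in the same comparison. *Ptprc*, which encodes the CD45 used to remove leukocytes, was at 8.46, 7.54 and 8.01 FPKM in *Atg5*-/- AT2-PBS, against 0.621, 0.0119 and 0.0646 FPKM in AT2-PBS. *Ptprc* passed the filter on low values only through *Atg5*-/- AT2-PBS, so these values are a description. Of the lists of marker genes, those called higher were 17 of 18 phagocyte-wide genes, 9 of 11 alveolar macrophage identity genes, 7 of 9 interstitial macrophage and monocyte genes and 9 of 10 pan-leukocyte genes, beside the 14.1% of all tested genes. Neutrophil genes (4 of 4), T and NK cell genes (4 of 4) and B cell genes (1 of 2) were called higher too. So were genes of cells that are not leukocytes: fibroblast (4 of 4), liver (8 of 8), club and ciliated (3 of 4) and erythroid genes (3 of 3). Of 11 AT2 genes, 1 was called higher and 4 lower, where 5.16% of all tested genes were called lower. The part of these lists in the result was not tested.

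For several lists the summed levels of *Atg5*-/- AT2-PBS and AT2-PBS did not overlap. The pan-leukocyte sum was between 520.9 and 621 FPKM against 74.0 to 123 FPKM, the neutrophil sum between 523 and 1701 FPKM against 14.4 to 112 FPKM, the T and NK cell sum between 38.3 and 75.2 FPKM against 0.369 to 2.34 FPKM, and the fibroblast sum between 94.3 and 103 FPKM against 3.57 to 12.8 FPKM. The liver sum was between 1619 and 2796 FPKM against 3.34 to 442 FPKM, with the highest AT2-PBS value in replicate 1, the library that also held the most *Ear2*, *Tyrobp* and *Ptprc* of its group. The club and ciliated sum was between 23133 and 84647 FPKM against 4960 to 11756 FPKM. Without AT2-PBS replicate 1 all 9 tested genes were still called, with the direction of *Mrc1* and *Itgax* set by the filter. The share of all tested genes called in that fit was not computed.

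Further alveolar macrophage transcripts come from the identity list. *Chil3*, a chitinase-like protein that these cells secrete in large amounts, was at 624, 597 and 977 FPKM in *Atg5*-/- AT2-PBS, but between 3.09 and 135 FPKM in the other 9 samples. *Siglecf*, their lectin marker, was at 9.20, 9.69 and 12.3 FPKM and elsewhere between 0 and 1.90 FPKM, and *Fabp4*, a fatty acid carrier, at 13.2, 16.1 and 16.8 FPKM and elsewhere between 0.582 and 6.75 FPKM. *Abcg1*, a sterol exporter, rose by 4.47 (SE 0.40). *Siglecf* passed the filter on low values only through *Atg5*-/- AT2-PBS. *Cd36* fell by 0.88 (SE 0.21), from 342, 370.3 and 346 FPKM to 203, 144 and 236 FPKM, and it was abundant in every sample. Eosinophils, from which the family has its name, left little trace: *Epx* was at or below 0.0200 FPKM and *Prg2* at or below 0.342 FPKM in all 12 samples, and of 11 eosinophil and mast cell genes 0 passed the filter. The summed level of that list was 0 in each AT2-PBS sample and between 0.986 and 23.6 FPKM in *Atg5*-/- AT2-PBS. The highest sum was that of replicate 2, where the mast cell genes *Tpsb2*, *Cma1* and *Cpa3* were at 11.3, 5.58 and 4.92 FPKM. *Epx* and *Prg2* were listed at 0 in that sample.

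**Figure D3:**
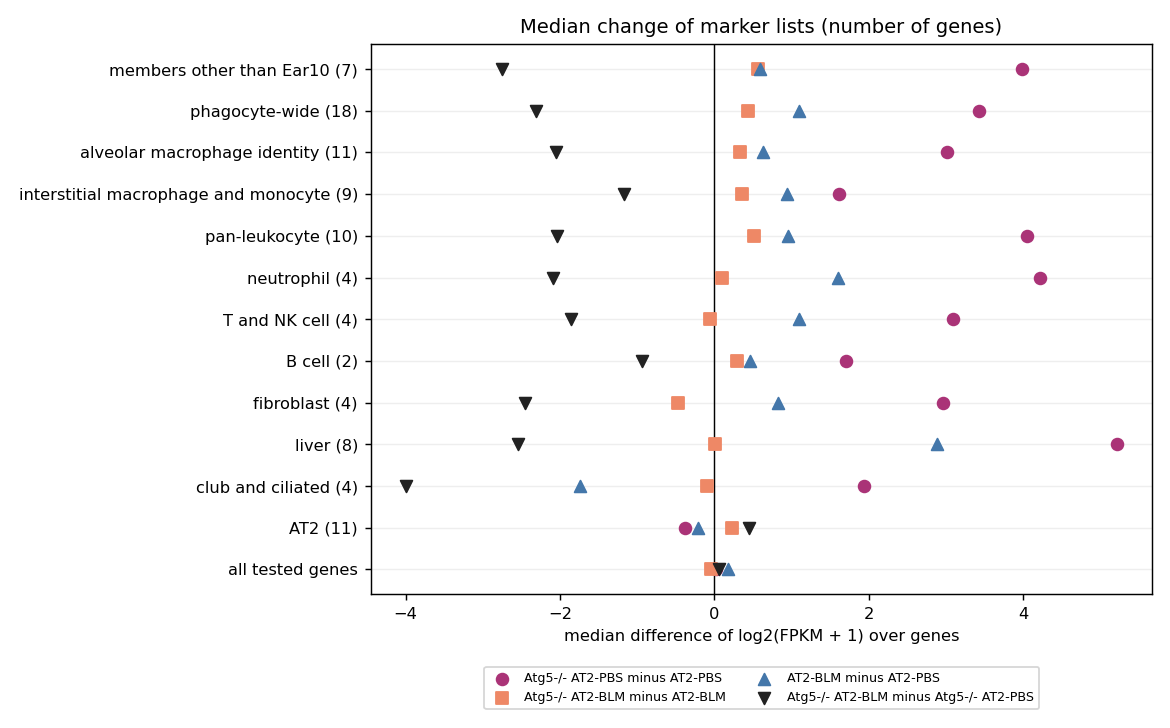
Median difference of log2(FPKM + 1) on the horizontal axis for the 7 tested members and 11 lists of marker genes, each over the genes that pass the filter without *Atg5*-/- AT2-PBS (their number in parentheses), and for all tested genes, with a symbol for each of 4 comparisons. Leukocyte, fibroblast and liver lists lie to the right with *Atg5* loss under PBS and to the left with BLM in *Atg5*-/- AT2, as the members do.

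The comparison of *Atg5*-/- AT2-BLM with AT2-BLM asks whether loss of *Atg5* during injury changes the same genes. Here the other macrophage genes did not follow *Ear10* at the level of the test. Of the 9, only *Itgax* was called (0.73, SE 0.33, unadjusted p = 0.0465 and adjusted p = 0.621 by limma), against 2.04% of all tested genes called higher. Of the 7 genes that would have passed the filter without *Atg5*-/- AT2-PBS, which leaves out *Itgax*, 0 were called. By limma 0 of 9 passed the adjustment, 1 of 9 had an unadjusted p under the threshold, and 0.00937% of all tested genes were higher at an adjusted p under 0.05. The samples overlapped for 9 of 9 genes, where 4.91% of all tested genes had higher ranges that did not overlap. *Ear2* differed by 1.30 (SE 0.76), *Tyrobp* by 0.89 (SE 0.63), *Csf1r* by 0.60 (SE 0.41), *Ear1* by 0.57 (SE 0.35), *Lpl* by 0.38 (SE 0.29), *Mrc1* by 0.26 (SE 0.24), *Marco* by 0.14 (SE 0.37) and *Cd68* by -0.08 (SE 0.35). The median of the 9 was 0.57 and that of all tested genes -0.05, with 8 of the 9 above 0. A missed threshold does not show that these genes were equal in the 2 groups.

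The 3 *Atg5*-/- AT2-BLM samples differed from one another. In replicates 2 and 3, *Ear1*, *Ear2*, *Mrc1*, *Csf1r*, *Itgax* and *Tyrobp*, 6 of the 9, were above all AT2-BLM samples. In replicate 1 only *Lpl* was, and *Cd68* and *Tyrobp* were below all AT2-BLM samples. Without *Atg5*-/- AT2-BLM replicate 1, 5 of 9 genes were called: *Ear1* at 0.91, *Ear2* at 2.09, *Csf1r* at 1.01, *Itgax* at 1.12 and *Tyrobp* at 1.63. The share of all tested genes called in that fit, or above all AT2-BLM samples in replicates 2 and 3, was not computed. Without AT2-BLM replicate 1 or 3, or without *Atg5*-/- AT2-BLM replicate 2 or 3, 0 of 9 were called. *Ear10* lay above all AT2-BLM samples in replicate 1 as well, at 2.92 FPKM.

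The leukocyte marker *Ptprc* was at 0.946, 0.845 and 0.706 FPKM in AT2-BLM, compared with 0.833, 1.72 and 2.64 FPKM in *Atg5*-/- AT2-BLM, again with replicate 1 inside the control range. Called higher, beside the 2.04% of all tested genes, were 1 of 18 alveolar macrophage identity genes (*Krt79*, 0.55, SE 0.25), 2 of 20 phagocyte-wide genes (*Cybb*, an oxidase subunit, 0.83, SE 0.36, and *Alox5ap*, a partner of leukotriene synthesis, 1.00, SE 0.42), 1 of 12 interstitial macrophage and monocyte genes (*Ms4a7*, 0.72, SE 0.33) and 0 of 14 pan-leukocyte genes (0 also at an unadjusted p under 0.05 by limma). None of these 4 passed the adjustment (adjusted p = 0.621 for each by limma). *Krt79* and *Ms4a7* passed the filter on low values only through *Atg5*-/- AT2-PBS. Without genes of that kind, 0 of 11 identity genes, 0 of 9 interstitial macrophage and monocyte genes and 2 of 18 phagocyte-wide genes were called. By sign, 13 of 14 pan-leukocyte genes (median 0.51) and 16 of 20 phagocyte-wide genes (median 0.36) were above 0, beside 8 of the 9 tested members (median 0.57). The summed pan-leukocyte level was between 99.4 and 181 FPKM in AT2-BLM and between 129 and 232 FPKM in *Atg5*-/- AT2-BLM, and the part of these cells in the *Ear10* values was not tested.

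The 3 *Ear* genes did not keep to 1 ratio. *Ear10* relative to *Ear2* was 0.318, 0.349 and 0.261 in *Atg5*-/- AT2-PBS and 0.879, 0.380 and 0.315 in *Atg5*-/- AT2-BLM. It was 0.0333 in AT2-PBS replicate 1, where *Ear2* was at 12.2 FPKM, and 0 in AT2-BLM replicate 2, where *Ear2* was at 8.71 FPKM. AT2-BLM replicate 3 had 0.125, and the other 3 control samples had a ratio of 0 with *Ear2* between 0.882 and 1.70 FPKM. *Ear10* was thus low relative to *Ear2* in all 6 control samples, those with several FPKM of *Ear2* included. These ratios rest in part on the values *Ear10* was selected on, are descriptions, and were computed after the data were seen.

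*Ear1* relative to *Ear2* divided the samples by treatment. The ratio was 0.273, 0.231 and 0.266 in *Atg5*-/- AT2-PBS and 0.266 in AT2-PBS replicate 1, the 4 PBS samples with more than 10 FPKM of *Ear2*. In AT2-PBS replicates 2 and 3, where both genes were near 1 FPKM, it was 1.18 and 0.641. It was 0, 0.0813 and 0.0745 in AT2-BLM and 0.0657, 0.0813 and 0.0582 in *Atg5*-/- AT2-BLM. All 6 BLM samples were below all 6 PBS samples, in both genotypes. With copies this alike, a ratio also depends on how shared reads were assigned, which was not tested.

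**Figure D4:**
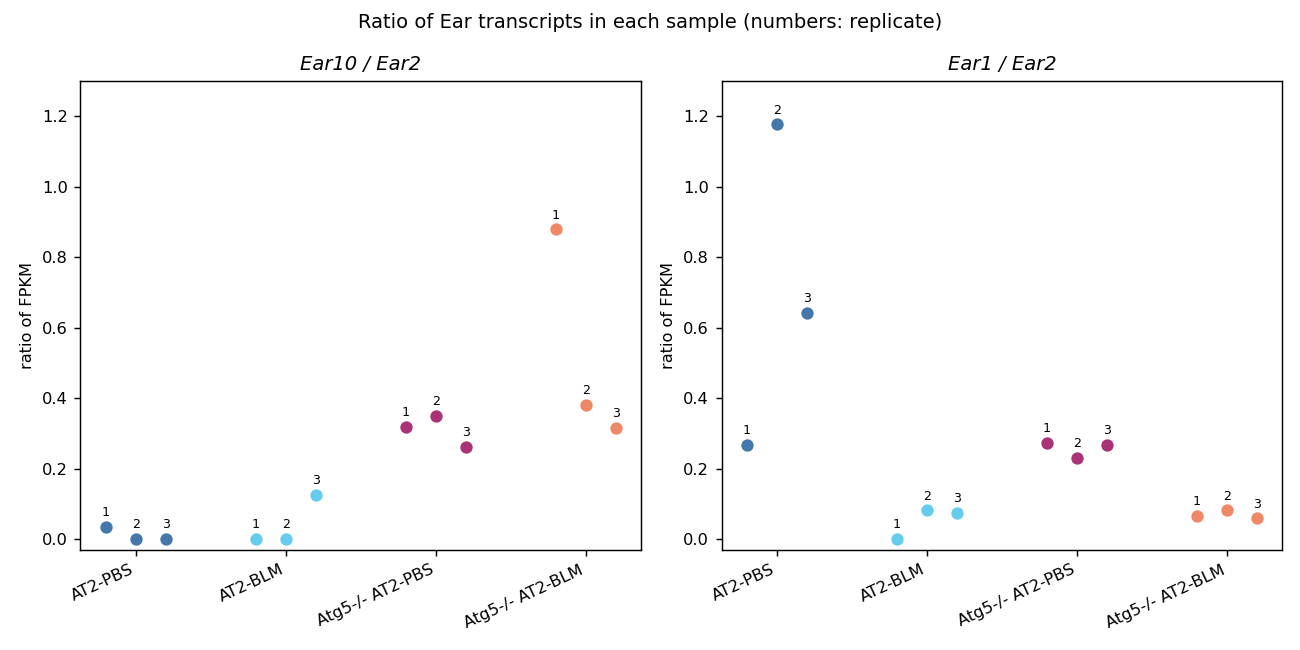
Ratio of FPKM of *Ear10* to *Ear2* (left) and of *Ear1* to *Ear2* (right) on the vertical axis for every sample of the 4 groups, labelled by replicate number. The 6 *Atg5*-/- samples lie at 0.261 or more on the left and the 6 control samples at 0.125 or less, and on the right the 6 BLM samples lie at 0.0813 or less.

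The wider RNase locus held few other expressed copies. The list of *Ear* genes and neighbouring RNases had 13 other genes in the table, of which 6 were tested. *Ear6*, at most 0.451 FPKM, and *Ear14*, listed at 0 throughout, were near absent, as were *Rnase2a* and *Rnase2b*, at most 0.442 and 0.0789 FPKM. *Ang4* and *Ang5*, angiogenin-type RNases, and *Rnase6* passed the filter only through *Atg5*-/- AT2-PBS, so their values there are descriptions. *Ang4* was at 14.6, 13.9 and 18.0 FPKM in *Atg5*-/- AT2-PBS, at 0.130, 0 and 0.249 FPKM in AT2-PBS, at 0.357, 1.00 and 0.600 FPKM in *Atg5*-/- AT2-BLM, and listed at 0 in all AT2-BLM samples. During BLM its ranges were apart, where 4.91% of all tested genes had higher ranges that did not overlap. *Ang4* was called higher (unadjusted p = 0.00236 and adjusted p = 0.582 by limma), as were 2.04% of all tested genes. Since it was named after its values were seen, this is a description. *Ang5*, whose gene lies between *Ear10* and *Ear2* (chromosome 14, 44534734 to 44540745), was at 7.37, 4.96 and 9.35 FPKM in *Atg5*-/- AT2-PBS, but listed at 0 in all 6 control samples. In *Atg5*-/- AT2-BLM it was at 0, 0.538 and 0.177 FPKM.

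*Rnase4*, *Ang* and *Rnase6* are further RNases of the list. *Rnase4*, on the same chromosome, was between 561 and 1433 FPKM in every sample and differed by -0.39 (SE 0.18, adjusted p = 0.232 by limma) with *Atg5* loss under PBS. *Ang*, which overlaps *Rnase4* in the annotation so that their reads may be split, was between 64.7 and 168 FPKM. It was called higher in *Atg5*-/- AT2-BLM (0.71, SE 0.20, adjusted p = 0.607 by limma), as were 2.04% of all tested genes. Its samples there lay between 101 and 140 FPKM against 64.7 to 76.5 FPKM in AT2-BLM. Higher ranges without overlap held for 4.91% of all tested genes. In AT2-PBS *Ang* lay between 95.9 and 168 FPKM. With BLM in control AT2, *Ang* (-0.82, SE 0.20, adjusted p = 0.0194 by limma) and *Rnase4* (-0.95, SE 0.18, adjusted p = 0.00606 by limma) were called lower, beside 7.77% of all tested genes. *Rnase6* was between 1.85 and 3.46 FPKM in *Atg5*-/- AT2-PBS, but at 0.710 FPKM or less in the other 9 samples.

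The comparison of AT2-BLM with AT2-PBS asks how injury changes these transcripts in control mice. The 9 genes split. *Cd68* (1.64, SE 0.35, adjusted p = 0.0103 by limma), *Tyrobp* (1.75, SE 0.63, adjusted p = 0.0725 by limma) and *Csf1r* (0.94, SE 0.41, adjusted p = 0.129 by limma) were called higher. *Lpl* (-0.98, SE 0.29, adjusted p = 0.0401 by limma) and *Ear1* (-0.95, SE 0.35, adjusted p = 0.0763 by limma) were called lower. So 3 of 9 were called higher, where 20.6% of all tested genes were, and 2 of 9 lower, where 7.77% were. At an adjusted p under 0.05, 1 of 9 was higher and 1 of 9 lower, against 13.4% and 4.38% of all tested genes. Ranges did not overlap for 2 of 9 on the higher side and 2 of 9 on the lower side, against 28.9% and 11.3%. On the higher side these shares were near the background of this comparison. *Marco* (0.59, SE 0.37), *Ear2* (0.43, SE 0.76), *Itgax* (0.25, SE 0.33), *Mrc1* (0.14, SE 0.24) and, as a description, *Ear10* (0.06, SE 0.31) were not among the calls.

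These calls were sensitive to single libraries. Without AT2-PBS replicate 2 or AT2-BLM replicate 2, 3 of 9 were called, *Csf1r* and *Tyrobp* being lost each time. *Csf1r* was also lost without AT2-PBS replicate 3 or AT2-BLM replicate 3, *Ear1* without AT2-PBS replicate 1 (-0.59) or AT2-BLM replicate 1, and *Marco* was called without AT2-BLM replicate 1 (0.94). Of the leukocyte lists, 9 of 20 phagocyte-wide, 8 of 14 pan-leukocyte, 6 of 12 interstitial macrophage and monocyte, 4 of 5 T and NK cell, 2 of 10 neutrophil, 1 of 18 alveolar macrophage identity and 0 of 4 B cell genes were called higher, beside the 20.6% of all tested genes. After adjustment by limma 4 of 20 phagocyte-wide, 2 of 14 pan-leukocyte and 4 of 12 interstitial macrophage and monocyte genes passed, beside 13.4% of all tested genes. The counts were 2 of 5 for T and NK cell, 2 of 10 for neutrophil, 1 of 18 for alveolar macrophage identity and 0 of 4 for B cell genes. *Ptprc* was at 0.706 FPKM or more in each AT2-BLM sample and at 0.621 FPKM or less in each AT2-PBS sample, all under 1 FPKM. Higher ranges that did not overlap held for 28.9% of all tested genes. The part of these cells in the values was not tested.

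The comparison of *Atg5*-/- AT2-BLM with *Atg5*-/- AT2-PBS gives the change with injury after loss of *Atg5*. The same 7 genes all fell: 7 of 7 were called lower, 6 of 7 passed the adjustment and 7 of 7 had ranges that did not overlap, against 10.7%, 6.26% and 11.8% of all tested genes. The differences were -4.78 (SE 0.35) for *Ear1*, -4.00 (SE 0.76) for *Ear2*, -3.26 (SE 0.37) for *Marco* and -2.75 (SE 0.63) for *Tyrobp*. They were -2.03 (SE 0.35) for *Cd68* and -1.60 (SE 0.29) for *Lpl*. *Csf1r* fell by 1.44 (SE 0.41) and just missed the adjustment (adjusted p = 0.0505 by limma). As descriptions, *Ear10* differed by -3.30 (SE 0.31), *Mrc1* by -2.18 (SE 0.24) and *Itgax* by -2.01 (SE 0.33). The median of the 7 was -2.75 and that of all tested genes 0.06. This comparison shares its *Atg5*-/- AT2-PBS samples with the first, so the falls are not separate evidence of the rises.

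The share kept was compared by medians, and samples of different genes overlap in it. Relative to its own mean in *Atg5*-/- AT2-PBS, the median level in *Atg5*-/- AT2-BLM was 2.69% for *Ear1*, 5.97% for *Marco*, 8.47% for *Ear2*, 10.4% for *Ear10* and 12.8% for *Mrc1*. It was 17.6% for *Itgax*, 23.1% for *Tyrobp*, 28.9% for *Cd68*, 32.1% for *Lpl* and 36.9% for *Csf1r*. Of the lists, 9 of 11 alveolar macrophage identity genes, 16 of 18 phagocyte-wide genes and 9 of 10 pan-leukocyte genes were called lower, beside the 10.7% of all tested genes, with 4 of 4 fibroblast, 6 of 8 liver and 4 of 4 club and ciliated genes. The part of these cells in the falls was not tested.

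The change with BLM differed between the genotypes for 6 of the 7 genes, by the interaction term of the same fit. The BLM effect in *Atg5*-/- AT2 minus that in control AT2 was called below 0 for 6 of 7, which also passed the adjustment, against 15.2% and 7.11% of all tested genes. For *Tyrobp* it was -4.50 (SE 0.89) and for *Cd68* -3.67 (SE 0.50), genes that were higher with BLM in control AT2 and lower in *Atg5*-/- AT2. *Lpl* was the exception (-0.62, SE 0.42, adjusted p = 0.446 by limma), having been called lower with BLM in both genotypes. Without AT2-BLM replicate 3 the term for *Lpl* was -1.01 and was called.

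The ligands, receptors and partners of the members had 15 tested genes, of which 10 would have passed the filter without *Atg5*-/- AT2-PBS. Of these 10, 7 were called higher in *Atg5*-/- AT2-PBS than in AT2-PBS and 5 passed the adjustment, beside 14.1% and 9.92% of all tested genes. *Itgb2*, the beta chain that pairs with CD11c, rose by 4.22 (SE 0.52), and *Lipa*, the lysosomal acid lipase, by 3.55 (SE 0.41). The GM-CSF receptor chain *Csf2rb* (2.35, SE 0.38) was called higher, as were *Trem2*, a receptor that signals through DAP12 (1.92, SE 0.47), *Angptl4*, an inhibitor of lipoprotein lipase (2.04, SE 0.46), *Gpihbp1*, its anchor on endothelium (0.98, SE 0.37), and *Csf1* (1.00, SE 0.30). The other 5 entered through *Atg5*-/- AT2-PBS and are described only: *Trem1*, a further DAP12 partner, differed by 3.20 (SE 0.18), *Syk*, the kinase downstream, by 1.52 (SE 0.17), *Siglec1* by 1.52 (SE 0.18), and the GM-CSF receptor chains *Csf2rb2* and *Csf2ra* by 1.42 (SE 0.22) and 1.05 (SE 0.16).

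*Csf2* and *Il34*, ligands that AT2 cells themselves can supply, were not called in this comparison, unlike *Csf1*. *Csf2*, which encodes GM-CSF, was between 4.69 and 8.84 FPKM in AT2-PBS and between 1.92 and 7.21 FPKM in *Atg5*-/- AT2-PBS (-0.65, SE 0.42, adjusted p = 0.412 by limma). *Il34*, the other ligand of CSF1R, was between 12.9 and 18.1 FPKM in the 6 PBS samples (0.02, SE 0.17, adjusted p = 0.960 by limma) and was called higher with BLM in control AT2 (0.53, SE 0.17). During BLM, *Atg5* loss gave 0 calls in 15 genes of this list by limma, with 0 at an unadjusted p under 0.05 (the lowest was 0.0528, for *Csf2rb*). Within *Atg5*-/- AT2, 5 of the 10 were called lower with BLM, beside 10.7% of all tested genes.

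The genes whose pattern over the 12 samples was most like that of *Ear10*, by Pearson's r of log2(FPKM + 1) as a description, were in order *Ccr1* (r = 0.970), *Cyp4f18*, *Lrp1*, *Prex1*, *Tm6sf1*, *Rab3il1*, *Tnfaip8l2*, *Ptprc* (r = 0.962), *Arhgap25* and *Cybb* (r = 0.961). *Ccr1*, a chemokine receptor, was at 8.72, 10.6 and 6.76 FPKM in *Atg5*-/- AT2-PBS, but between 0.0126 and 2.45 FPKM elsewhere. Among 10674 genes, *Itgax* ranked 12 (r = 0.959), *Ear2* 43 (r = 0.940), *Mrc1* 77 (r = 0.932) and *Tyrobp* 156 (r = 0.910). The remaining members ranked between 195 (*Csf1r*) and 992 (*Lpl*, r = 0.656). The samples form groups, and these r are set mainly by the distance of *Atg5*-/- AT2-PBS from the rest. The ranking also uses the values *Ear10* was selected on. *Cyp4f18*, *Lrp1*, *Prex1*, *Tm6sf1*, *Ptprc* and *Arhgap25*, and the members *Itgax* and *Mrc1*, passed the filter on low values only through *Atg5*-/- AT2-PBS. With group means subtracted, the 10 genes most like *Ear10* were *Actb* (r = 0.973), *Tmem167*, *Eno1*, *Zwint*, *Psap*, *Atxn2l*, *Tubb2a*, *Psmd1*, *Atl3* and *Etf1*, and the members ran from -0.68 for *Lpl* to 0.73 for *Ear2*. With Spearman's rho in place of Pearson's r, 2 of the 10 genes were shared (*Lrp1* and *Arhgap25*).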

How the data were processed

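RNA from AT2 cells was sequenced in 12 samples, 3 in each of 4 groups. The authors prepared stranded mRNA libraries, trimmed reads, aligned them to mm9 and deposited FPKM per gene, and the labels name Trimmomatic 0.36, HISAT2 2.2.1.0, Cufflinks 2.2.1 and HTSeq 0.9.1, while the methods name STAR as aligner. A DESeq normalization is also described, and whether these FPKM include it is not given in the sources used here. No read counts were used, so depth is unknown and no counting interval is given.

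Groups came from the sample titles. For AT2-PBS replicate 3 the number in the title was used, since its description carries a different one. Log2(FPKM + 1) was modelled by limma 3.58.1 (R 4.3.3) for 10675 genes that reached 1 FPKM in 3 or more samples. A single model of all 12 samples with 4 group means and trended eBayes was used, with Benjamini-Hochberg adjustment over all of them. This test was checked on simulated data. The exact permutation test of 3 against 3 samples cannot go below a two-sided p of 0.1 and was not used. The members and lists were chosen with earlier results of these data known, and the list counts have no test of their own.

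The text names the 10 members, the other *Ear* genes, the 10 genes most like *Ear10* by Pearson correlation over all samples and within groups, defining markers, the most abundant genes of the lists, and the ligands, receptors and partners called in a comparison. *Ang4*, *Ang5*, *Rnase6*, *Krt79*, *Abcg1*, *Alox5ap* and *Ms4a7* were named after their values were seen. Several genes under the naming rule, such as *Lyz1*, *Apoe* and *Fabp5*, entered only the list counts. Alternatives were another pseudocount, no filter, 3 scalings, a replicate block, fitting the compared groups alone, untrended eBayes, stricter calls, summed *Ear* genes, Spearman correlation and each sample left out. The sum of *Ear1* and *Ear2*, the counts over genes that pass the filter without *Atg5*-/- AT2-PBS, the shares of the *Atg5*-/- AT2-PBS mean and the *Ear* ratios were added after seeing the data. Sequences and coordinates were read with Python 3.11.15 and Biopython, and figures drawn with matplotlib 3.10.9.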

Additional observations from a re-analysis of the deposited data

Results flagged for a closer look

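The change with BLM differed between *Atg5*-/- AT2 and control AT2 for 8 members by the interaction term of the limma fit, and these are given as values. The BLM effect in *Atg5*-/- AT2 minus that in control AT2, on the log2 scale, was -3.83 for *Ear1*, -4.42 for *Ear2*, -3.85 for *Marco* and -2.33 for *Mrc1*. It was -3.67 for *Cd68*, -2.38 for *Csf1r*, -2.26 for *Itgax* and -4.50 for *Tyrobp*. Each passed an adjusted p under 0.05 over all genes (adjusted p from 0.00156 for *Ear1* to 0.0278 for *Ear2*, limma). At that threshold 7.11% of all tested genes were below 0. The pan-leukocyte, fibroblast and liver lists were also higher in *Atg5*-/- AT2-PBS and lower in *Atg5*-/- AT2-BLM, and their part in these values was not tested. *Mrc1* and *Itgax* passed the filter on low values only through *Atg5*-/- AT2-PBS, so the sign of their terms was set by it. Over the tested genes that pass without that group the count was 6 of 7.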

How the results depend on the processing

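The counts of called genes among the 9 tested, *Mrc1* and *Itgax* included, were within 1.5 times under every alternative run for *Atg5*-/- AT2-PBS against AT2-PBS (9 throughout), for BLM in *Atg5*-/- AT2 (8 to 9) and for the interaction (8 to 9). For *Atg5* loss during BLM the count of 1 became 0 with quantile normalization, with a pseudocount of 0.1, without the filter, with only the compared groups fitted, with adjusted p, or with a fold change of at least 2, and it ran from 0 to 5 with a sample left out. For BLM in control AT2 the count of 5 became 3 with scaling to *Cdh1*, 2 with adjusted p and 2 with a fold change of at least 2, and it ran from 3 to 5 with a sample left out. Shares of all tested genes were not computed for the fits with a sample left out, and the cause was not tested.

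The pseudocount and the summing bear on the *Ear* values. With a pseudocount of 0.1 *Ear10* differed by 8.53 with PBS and by 4.87 during BLM, against 5.85 and 2.49 with 1, and with scaling to *Cdh1* by 6.26 with PBS, with an interaction of -3.77. *Atg5* loss during BLM gave 1.78 for the sum of all listed *Ear* genes, *Ear10* included, and 0.57 for *Ear1* alone, as a description.

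Directions that turned were those of small differences. With *Atg5* loss during BLM, *Cd68* was 0.0177 with quantile normalization, 0.0950 with scaling to *Cdh1*, and -0.44 to 0.25 with a sample left out, *Marco* was -0.21 to 0.57 and *Lpl* -0.00562 to 0.599. With BLM in control AT2 and a sample left out, *Ear2* was -0.11 to 1.30 and *Mrc1* -0.0336 to 0.34, and *Ear1*, lower on its own, was at 0.0553 as the sum of all listed *Ear* genes and at 0.0163 as the sum of *Ear1* and *Ear2*.

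Replicate numbers did not pair the samples, since 4 of 18 same-numbered pairs had correlated deviations over 0.1 (range -0.30 to 0.23). With a replicate block *Csf1r* lost its call with BLM in control AT2 (unadjusted p = 0.0558 by limma), leaving 4 genes called there, and the other calls among the 9 were kept. Values near 0 FPKM limit *Ear1*, *Marco*, *Mrc1* and *Itgax* outside *Atg5*-/- AT2-PBS.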
